A study of Mus musculus with 6 samples.

Results

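*Ren1*, *Gsta2*, *Aqp5*, *Ifitm1*, *Mapk13*, *Mal*, *Akr1b7* and *Akr1cl* were followed in single-cell RNA sequencing data of mouse fetal gonads at E15.5. These 8 genes were taken by name from 26251 gene symbols listed in 6 libraries. They had been picked on the difference between control XY and dKO XY Leydig cells in the same libraries, so that their values in that contrast are given below as a description without a test. In those cells *Ren1* and *Gsta2* were lower in the dKO XY testis, *Aqp5*, *Ifitm1*, *Mapk13* and *Mal* were higher, *Akr1cl* was 1.11-fold higher in the dKO XY mean, and the libraries of *Akr1b7* overlapped over all Leydig cells together, though not in the cells with fewer steroidogenic transcripts.

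Control XY testes and control XX ovaries were wild type (Amh+/+ and Inhbb+/+), and dKO XY testes were homozygous for targeted alleles of both genes (Amh-/- and Inhbb-/-), all on a C57BL/6 background. Each of the 3 groups had 2 libraries, described as biological replicates, and both gonads of an animal were dissociated together. Whether a library held cells of more than 1 animal is not given in the sources used here. The whole fetus carried these alleles, and neither single knockout is analysed here, so that the loss of AMH and the loss of activin B cannot be told apart. Dissociated cells had been frozen and thawed before capture.

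AMH and activin B are secreted hormones of the TGF-beta family that Sertoli cells make inside the testis cords. Fetal Leydig cells lie between the cords and turn cholesterol into androgens, and fetal steroid-producing cells of the mouse are also a known site of renin expression outside the kidney. Cells that make steroids express glutathione transferases and aldo-keto reductases, enzymes that remove reactive aldehydes, peroxides and steroid by-products.

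Leydig cells were taken as cells in which *Cyp17a1* and *Cyp11a1*, enzymes of androgen synthesis, together held at least 0.4% of the UMIs (unique molecular identifiers, each counted as 1 captured transcript). This gave 777 and 1091 cells in the control XY libraries, 630 and 689 in the dKO XY libraries and none in the control XX libraries, where the highest value of any cell was 0.0486%, out of 39350 cells that passed the filter. Of the 7 Leydig markers the gate itself used 2, which therefore say nothing on the label. Of the 5 it did not use, 4 (*Insl3*, *Star*, *Hsd3b1* and *Lhcgr*) were higher in the gated cells than in any other cell type of the same library in all 4 XY libraries, and *Hsd3b6* was near 0. *Insl3*, a peptide hormone of Leydig cells, stood at 2391 and 1534 UMIs per 1000000 UMIs (CPM) in control XY against 1536 and 953 CPM in dKO XY Leydig cells, and at most at 11.99 CPM in any other type of these libraries. Between 13 and 31 cells per library lay just above the limit, from 0.4% to 0.5%, and 11 to 32 just below it, from 0.3% to 0.4%. Median depth was 37315 to 42434 UMIs per Leydig cell. Both targeted genes were lower in dKO XY supporting cells, by unequal amounts. The control XY libraries held 2059 and 1905 CPM of *Amh* and the dKO XY libraries 18.4 and 15.8 CPM. For *Inhbb* the control XY libraries held 163 and 185 CPM, the dKO XY libraries 42.5 and 51.5 CPM and the control XX libraries 37.3 and 25.4 CPM. Part of its transcript thus remained in dKO XY, and which part of the gene the UMIs came from was not examined. Leydig cells held *Inhbb* as well, with 1989 and 3050 UMIs in control XY and 327 and 735 UMIs in dKO XY. Its log2 fold changes there were -2.38 to -1.57 when single libraries were left out. For *Amh* the Leydig cells held 441 and 1829 UMIs in control XY and 347 and 710 UMIs in dKO XY. The part of RNA from supporting cells in these Leydig values was not tested.

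Libraries differed in ways other than genotype. Mitochondrial reads exceeded the limit in 24.4% and 28.3% of the dKO XY barcodes and in 4.50% and 7.65% of the control XY barcodes, and those cells were left out. Of 11 marker lists of other cells, the summed level in Leydig cells was higher in both dKO XY libraries for 7, lower for 1 and overlapping for 3 (Sertoli, immune and pericyte). The sum of 7 germ cell markers was 6.11 and 6.86 CPM in control XY and 57.1 and 39.8 CPM in dKO XY, that of 7 erythroid markers was 14.0 and 24.9 CPM against 298.7 and 132.5 CPM, and that of 7 markers of the supporting lineage was 238 and 243 CPM against 423 and 552 CPM. The 9 interstitial markers summed to 989 and 1024 CPM in control XY and to 749 and 788 CPM in dKO XY, and the 10 Sertoli markers to 1353 and 1510 CPM against 1537 and 1376 CPM. *Cst8* alone held 1262 and 1325 CPM of the Sertoli sum in control XY and 1342 and 1178 CPM in dKO XY. That sum therefore says little on the other Sertoli markers. The part of this RNA in the values below was not tested, beyond the settings named beside each gene. Between 4 and 25 cell barcodes were shared by any pair of libraries.

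*Ren1* encodes renin, the protease that cuts angiotensinogen in the first step of the renin-angiotensin system. The gene lies at chr1:133350510-133360325 on the plus strand of GRCm38. Its stretch before the RefSeq start is shown because *Ren1* was the one member with a TATA box, the letters TATAAA, close to its start, and capitals mark those letters at chr1:133350633-133350662 (GRCm38.p6, plus strand).
Ren1: atacatggtgtgTATAAAagaaggctcagg
The box ended 24 bases before the RefSeq start. That start differs from that of the gene span above, and the bases shown lie inside that span. Of the 250 bases before the RefSeq start, 164 lie in annotated exons. Over all 32851 RefSeq promoters, 12.4% held TATAAA on either strand within 250 bases upstream. Such matches of letters describe the sequence and are not shown to be sites of binding.

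Renin transcripts were lower in the Leydig cells of both dKO XY libraries. The level of *Ren1* was 7029.8 and 6423 CPM in control XY and 2772 and 765 CPM in dKO XY Leydig cells. The groups did not overlap, but the 2 dKO XY libraries lay 3.62-fold apart while the control XY libraries lay 1.09-fold apart. The dKO XY mean was 0.263 of the control XY mean, and the fitted log2 fold change was -1.93. It was -3.18 without dKO XY library 1 and -1.28 without dKO XY library 2, so the size of the difference rests on the library.

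The lower *Ren1* level was seen across the cells of both dKO XY libraries. The median Leydig cell held 5782 and 5139 CPM of *Ren1* in the control XY libraries, 2027 CPM in dKO XY library 1 and 214 CPM in dKO XY library 2. With every cell thinned to 5000 UMIs, *Ren1* was detected in 97.9% and 97.3% of control XY Leydig cells and in 92.5% and 57.3% of dKO XY Leydig cells. Endothelial cells, which should lack renin, gave 8.25%, 10.6%, 4.35% and 4.27% in the same order, with median depths of 25510 to 42810 UMIs per cell. All 4 Leydig shares lay above these, and the lowest was that of dKO XY library 2. Without thinning the Leydig shares were 99.5%, 99.7%, 97.6% and 83.2%.

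**Figure D1:**
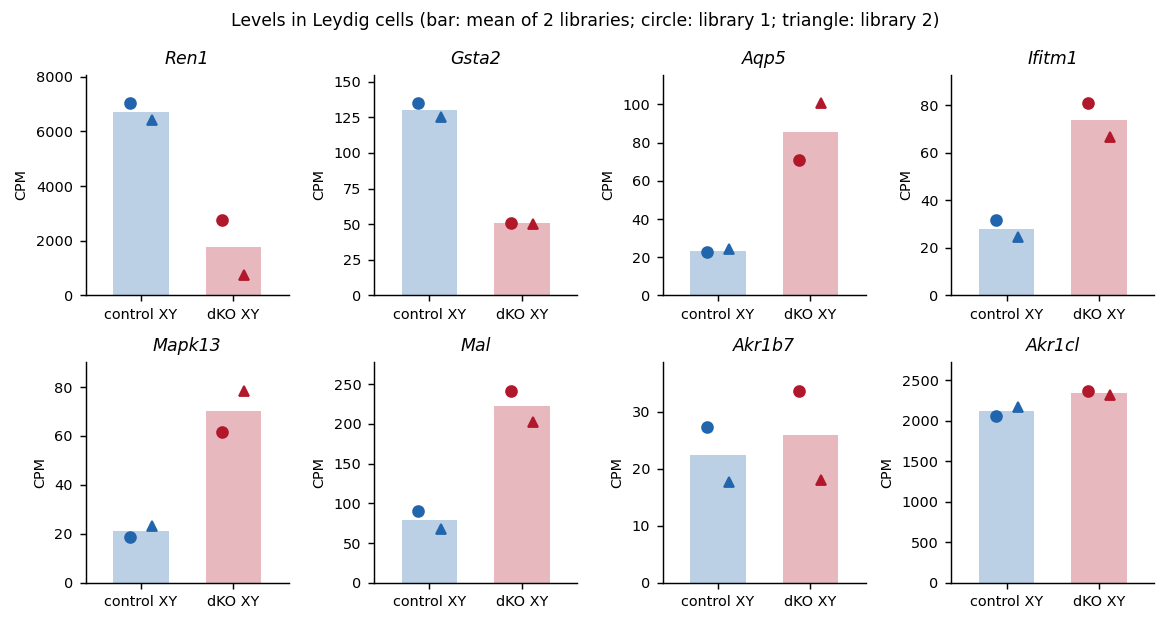
Level of each of the 8 genes in Leydig cells in CPM (y axis, linear from 0) for control XY and dKO XY. Bars are the mean of 2 libraries, circles library 1 and triangles library 2. Both dKO XY points lie below both control XY points for Ren1 and Gsta2, above them for Aqp5, Ifitm1, Mapk13, Mal and by little for Akr1cl, and between or around them for Akr1b7.

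Counted over the 8 genes, the libraries of the 2 groups did not overlap for 7 in Leydig cells, 5 higher and 2 lower in dKO XY. With 2 libraries against 2 this is common: it was also true of 49.5% of the 14594 genes tested there, 27.7% higher and 21.8% lower. In the edgeR fit 4.66% of these genes had an adjusted p under 0.05, 3.02% higher and 1.64% lower in dKO XY. Nothing is read from the count, since the 8 genes were picked on this contrast.

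Renin was not alone among the genes of its pathway in differing between the groups. Of 12 other genes of the renin-angiotensin system, 9 were abundant enough to test in Leydig cells, and 1 was higher and 4 were lower in dKO XY at an edgeR adjusted p under 0.05 (median log2 fold change -0.22, against -0.01 over all genes tested). *Agt*, the angiotensinogen that renin cuts, fell from 143 and 114 CPM to 64.8 and 65.0 CPM (log2 fold change -1.01, SE 0.12, edgeR adjusted p = 0.00675). *Agtr2*, an angiotensin II receptor, fell from 5.11 and 4.91 CPM to 1.85 and 2.52 CPM (log2 fold change -1.21, SE 0.20, adjusted p = 0.0197). *Anpep*, an aminopeptidase that trims angiotensin peptides, rose from 0.343 and 0.362 CPM to 1.18 and 1.27 CPM (log2 fold change 1.77, SE 0.33, adjusted p = 0.0269). These levels are 12 and 16 UMIs in control XY and 32 and 43 UMIs in dKO XY. In supporting cells *Anpep* was also higher in dKO XY, with log2 fold changes of 3.53 to 4.52 when single libraries were left out. The part of RNA from such cells in its Leydig values was not tested.

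Genes of the steroid pathway were tested apart from the 2 transcripts of the gate. Of 14 tested, 1 fell and none rose at an edgeR adjusted p under 0.05 (median log2 fold change -0.20, against -0.01 over all genes tested). At an unadjusted p under 0.05 the count was 6 of 14, where 18.9% of all genes tested reached it, and DESeq2 called 1. Among adrenal-like genes such as *Cyp21a1* and *Cyp11b1*, none of 3 was called by edgeR, with 1 at an unadjusted p under 0.05 and 1 by DESeq2.

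*Gsta2* encodes an alpha-class glutathione S-transferase, an enzyme that joins glutathione to reactive products of lipid oxidation. It lies on the minus strand at chr9:78331018-78355788 (GRCm38). The bases upstream of its RefSeq start, chr9:78347169-78347395 on the minus strand (GRCm38.p6), are shown beside those of *Ren1* as the other member that was lower in dKO XY Leydig cells. The RefSeq start differs from that of the gene span above, and the bases shown lie inside that span. A TATA box and a CCAAT box are in capitals, both on the reverse strand.
Gsta2: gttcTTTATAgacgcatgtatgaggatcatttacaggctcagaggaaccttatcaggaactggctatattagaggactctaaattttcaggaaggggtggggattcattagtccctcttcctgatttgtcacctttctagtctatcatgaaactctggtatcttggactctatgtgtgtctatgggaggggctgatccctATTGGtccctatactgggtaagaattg
Here the TATAAA letters lay 241 bases before the RefSeq start and not near it. The letters CCAAT occurred in 3 of the 8 promoters, those of *Akr1cl*, *Akr1b7* and *Gsta2*, and in 33.9% of all promoters.

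*Gsta2* was lower in dKO XY Leydig cells, by a like amount in both libraries. Leydig cells held 135 and 125 CPM in control XY and 51.05 and 50.4 CPM in dKO XY. The 2 dKO XY libraries lay 1.01-fold apart and both were below both control XY libraries, with a dKO XY mean of 0.391 of the control XY mean and a fitted log2 fold change of -1.38. At 5000 UMIs per cell *Gsta2* was detected in 35.8% and 34.1% of control XY and in 16.5% and 17.7% of dKO XY Leydig cells, against 0.791% to 2.11% of endothelial cells. Of the 31-base stretches of its transcript, 55.8% also occur in *Gsta1* and 51.9% in *Gm3776*, so that reads from these near-identical copies could be split or lost in counting. *Gm3776* is not analysed here. *Gsta1* was covered by 5 UMIs in all control XY Leydig cells and by none in the dKO XY ones, which allows up to 0.111 and 0.0889 CPM (3 UMIs in each library).

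Of 19 other glutathione S-transferases tested in Leydig cells, 3 rose and 1 fell at an edgeR adjusted p under 0.05, where 4.66% of all genes were called (median log2 fold change 0.03, against -0.01 over all genes tested). At an unadjusted p under 0.05 the count was 6, and DESeq2 called 3. *Gstt1* rose from 3.97 and 3.67 CPM to 8.29 and 8.83 CPM (log2 fold change 1.146, edgeR adjusted p = 0.00732). *Gsta3*, another alpha-class enzyme, fell from 154 and 174 CPM to 109 and 101 CPM (log2 fold change -0.66, edgeR adjusted p = 0.0159). Both also differed outside Leydig cells when single libraries were left out. The log2 fold changes of *Gsta3* were -1.66 to -1.14 in supporting cells. Those of *Gstt1* were 0.82 to 1.03 in supporting and 0.38 to 0.79 in interstitial cells. The part of RNA from such cells in the Leydig values was not tested.

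*Akr1b7* and *Akr1cl* belong to the aldo-keto reductases, which reduce aldehydes and ketones with NADPH. *Akr1b7* is known in the adrenal cortex for clearing isocaproaldehyde, the by-product of cholesterol side-chain cleavage, and as a target of the nuclear receptor NR5A1. It lies at chr6:34412334-34423142 on the plus strand. Its upstream bases, chr6:34412112-34412333 (GRCm38.p6, plus strand, RefSeq), are shown because *Akr1b7* was the only one of the 8 with the NR5A1 letters AAGGTCA within 250 bases. Capitals mark these letters, on the reverse strand, and 2 CCAAT boxes.
Akr1b7: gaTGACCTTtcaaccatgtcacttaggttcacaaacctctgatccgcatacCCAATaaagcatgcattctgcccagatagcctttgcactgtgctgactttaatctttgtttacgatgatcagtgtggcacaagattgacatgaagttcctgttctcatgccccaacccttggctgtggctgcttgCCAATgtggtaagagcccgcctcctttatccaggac
Of all promoters, 4.08% held AAGGTCA on either strand.

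In all Leydig cells together *Akr1b7* did not separate the groups. Its level was 27.3 and 17.6 CPM in control XY and 33.7 and 18.0 CPM in dKO XY. The libraries of each group lay 1.55-fold and 1.87-fold apart, more than the 1.153-fold between the means. The fitted log2 fold change was 0.19, and it was -0.10 without control XY library 2 and -0.35 without dKO XY library 1. *Akr1b7* differed more among cells than between groups: it was higher in cells with more *Cyp17a1* and *Cyp11a1*, rising in control XY library 1 from 0.508 CPM in cells with 0.4% to 0.8% of their UMIs in these genes to 54.4 CPM in cells with 3.2% or more. Within the 3 bands of cells under 3.2% both dKO XY libraries lay above both control XY libraries, by 4.88-fold in the mean from 0.8% to 1.6% and by 1.75-fold from 1.6% to 3.2%. In the lowest band libraries 1 and 2 held 17.9 and 3.22 CPM in dKO XY (46 and 15 UMIs) against 0.508 and 0.432 CPM in control XY, which are 1 UMI each, so that no fold is given. In the band of 3.2% and more they overlapped. The median share of *Cyp17a1* and *Cyp11a1* was lower in the dKO XY libraries, as given below with the bands.

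*Akr1cl*, a mouse reductase close to the AKR1C enzymes, was abundant and near level. It lies on the minus strand at chr1:65012689-65032759 (GRCm38). Leydig cells held 2055 and 2171 CPM in control XY and 2370 and 2319 CPM in dKO XY. Both dKO XY libraries were above both control XY libraries, yet the means differed by only 1.11-fold (log2 fold change 0.13). Every band showed the same order, and the gap was 1.42-fold in cells with the least *Cyp17a1* and *Cyp11a1* and 1.13-fold in those with the most. Of 10 other aldo-keto reductases tested, none was called by edgeR or by DESeq2, and 1 had an unadjusted p under 0.05.

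*Aqp5* encodes aquaporin 5, a water channel best known from glands and lung epithelium, and lies at chr15:99590782-99594829 (GRCm38, plus strand). Leydig cells held 22.8 and 24.3 CPM in control XY and 71.0 and 100.6 CPM in dKO XY. Both dKO XY libraries exceeded both control XY libraries, the mean was 3.65-fold that of control XY, and the fitted log2 fold change was 1.84. The transcript was concentrated in few cells, since the 10% of the Leydig cells with the most held 63.7% to 81.2% of its UMIs per library. At 5000 UMIs per cell it was found in 7.85% and 9.17% of control XY and in 18.25% and 21.5% of dKO XY Leydig cells, against at most 0.855% of endothelial cells in these libraries. Of 4 other aquaporins tested none was called by edgeR or DESeq2, and 2 had an unadjusted p under 0.05.

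*Mal* encodes a small membrane protein that sorts cargo to the apical surface and is also found in myelin and T cells. It lies on the minus strand at chr2:127633226-127656695 (GRCm38). The 250 bases before its start, chr2:127656696-127656945 on the minus strand (GRCm38.p6, RefSeq), are shown because *Mal* had, of the 4 genes that were higher, the highest Leydig level relative to the next cell type, and none of the 6 motifs searched occurred there, so that no letters are in capitals.
Mal: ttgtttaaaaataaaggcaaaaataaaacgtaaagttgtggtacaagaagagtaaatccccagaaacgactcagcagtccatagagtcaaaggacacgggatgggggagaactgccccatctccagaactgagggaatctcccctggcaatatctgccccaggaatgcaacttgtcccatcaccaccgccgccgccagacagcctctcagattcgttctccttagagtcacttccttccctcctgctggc
The other letters searched on both strands were the SMAD palindrome GTCTAGAC, found in 0.167% of all promoters and in none of the 8, the interferon-stimulated response element, found in 2.98% and in none of the 8, and the GATA letters AGATAA, found in 9.99% and, of the 8, in *Akr1cl*.

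*Mal* was higher in the dKO XY Leydig cells of both libraries. It stood at 90.7 and 68.1 CPM in control XY against 242 and 202.5 CPM in dKO XY Leydig cells. The groups did not overlap, the mean was 2.80-fold that of control XY and the fitted log2 fold change was 1.47. With cells thinned to 5000 UMIs, *Mal* was found in 29.2% and 26.1% of control XY Leydig cells and in 57.0% and 51.4% of dKO XY Leydig cells, and in at most 2.56% of endothelial cells. Of 8 related MAL and MARVEL genes tested, 1 rose: *Mall*, from 1.20 and 0.747 CPM to 4.11 and 3.23 CPM (log2 fold change 1.91, edgeR adjusted p = 0.0147). In supporting cells *Mall* was also higher in dKO XY, with log2 fold changes of 1.91 to 2.43 when single libraries were left out. The part of RNA from such cells in its Leydig values was not tested.

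*Mapk13* encodes p38 delta, a stress-activated kinase, and lies at chr17:28769297-28780233 (GRCm38, plus strand). Leydig cells held 18.7 and 23.2 CPM in control XY and 61.7 and 78.5 CPM in dKO XY. Both dKO XY libraries were above both control XY libraries, with a mean 3.35-fold that of control XY and a fitted log2 fold change of 1.72. At 5000 UMIs per cell it was found in 7.34% and 9.44% of control XY against 20.5% and 24.8% of dKO XY Leydig cells, and in at most 2.82% of endothelial cells. Of 12 other genes of the p38 pathway, *Mapk14*, which encodes p38 alpha, rose from 14.1 and 13.9 CPM to 19.2 and 20.5 CPM (log2 fold change 0.48, edgeR adjusted p = 0.0432), and edgeR did not call the other 11. DESeq2 called 2 of the 12, *Mapk14* and *Dusp10*, a phosphatase of stress-activated kinases that is named after its values were seen (edgeR adjusted p = 0.0838).

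*Ifitm1* encodes an interferon-induced membrane protein that is also a known surface marker of early germ cells, and lies at chr7:140967221-140969825 (GRCm38, plus strand). Leydig cells held 31.6 and 24.6 CPM in control XY and 80.8 and 66.6 CPM in dKO XY. Both dKO XY libraries lay above both control XY libraries, the mean was 2.62-fold that of control XY and the fitted log2 fold change was 1.37. Other cells held far more of it: dKO XY germ cells held 1075 and 958.5 CPM and dKO XY supporting cells 617 and 669 CPM. Germ cell markers in the dKO XY Leydig cells stood at 1.30% and 1.05% of their level in germ cells, and supporting lineage markers at 11.6% and 14.0% of their level in supporting cells, against 11.4% and 11.6% in control XY. Without the cells of the highest doublet scores the log2 fold change was 1.66. At 5000 UMIs per cell *Ifitm1* was found in 11.6% and 9.72% of control XY against 21.75% and 22.6% of dKO XY Leydig cells. In endothelial cells the shares were 7.22% and 8.45% in control XY and 17% and 17.95% in dKO XY, so that each dKO XY share was higher in both cell types. Of 14 other IFITM and interferon-stimulated genes tested in Leydig cells, edgeR called 1 and DESeq2 none, with 3 at an unadjusted p under 0.05. The 1 was *Ifitm7*, covered by 1 and 3 UMIs in control XY and by 11 and 14 UMIs in dKO XY (edgeR adjusted p = 0.0387), too few for a fold to be given.

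The 8 genes followed the steroidogenic content of the cells in different ways. Gated cells were split by the summed share of *Cyp17a1* and *Cyp11a1*, whose median was 2.58% and 2.38% in the control XY libraries and 2.03% and 1.92% in the dKO XY libraries. Each of the 4 bands held 47 to 625 cells per library. *Mapk13*, *Akr1b7* and *Akr1cl* were higher in cells with more of these transcripts, and *Ifitm1* was lower, falling in control XY library 1 from 117 CPM in the lowest band to 5.19 CPM in the highest. Across single Leydig cells, the Spearman correlation of *Ifitm1* with this share was -0.455, -0.451, -0.494 and -0.535 in the 4 libraries (777, 1091, 630 and 689 cells, which share their library and depth).

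Within these bands the order of the groups mostly stayed. For *Ren1*, *Gsta2*, *Aqp5*, *Mapk13* and *Mal* both dKO XY libraries lay on the same side of both control XY libraries in each of the 4 bands. For *Ifitm1* this held in 3 bands, and in the band from 0.8% to 1.6% the libraries overlapped, with 101 and 70.6 CPM in control XY and 163 and 100.1 CPM in dKO XY. The gated cells of the cycling cluster, 51 to 70 per library, gave the same order for these 6 genes and placed dKO XY above control XY for *Akr1b7* and *Akr1cl* as well, with for example 5734 and 4966 CPM of *Ren1* in control XY and 2478 and 705 CPM in dKO XY.

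**Figure D2:**
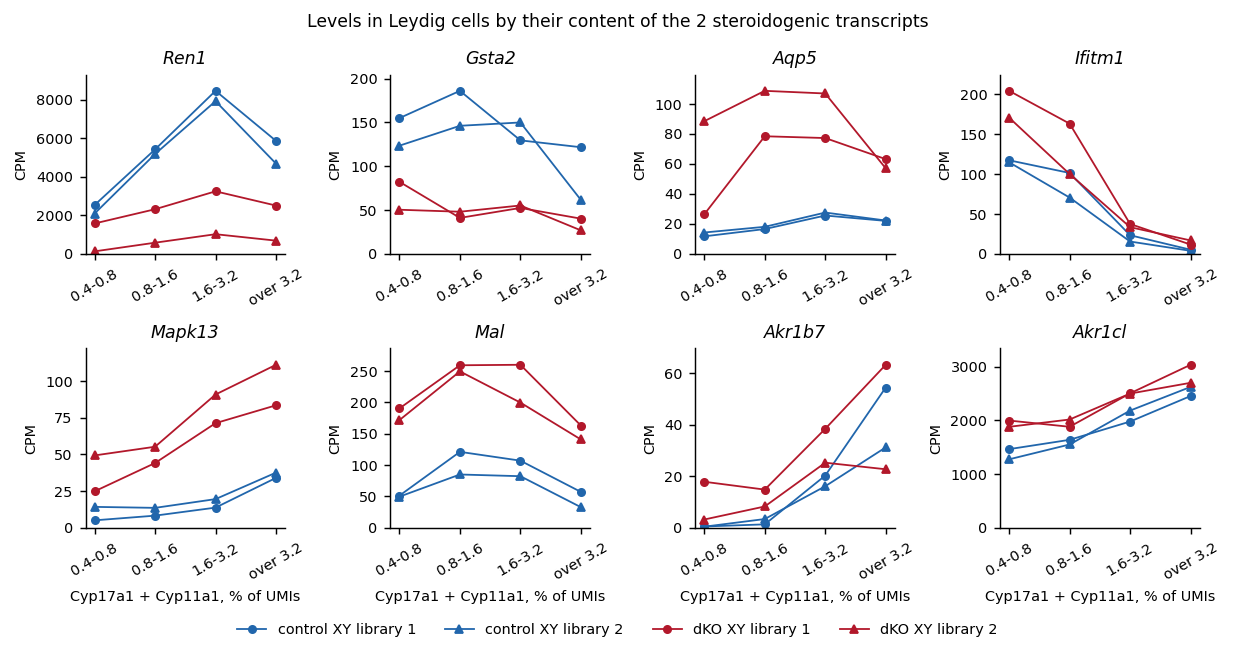
Level of each gene in CPM (y axis, linear from 0) in Leydig cells split by the percent of their UMIs in Cyp17a1 and Cyp11a1 (x axis, 4 bands), 1 line per library. In each band the dKO XY lines of Ren1 and Gsta2 run below the control XY lines, those of Aqp5, Mapk13 and Mal run above them, and Ifitm1 falls as the share rises in all 4 libraries.

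Cells of the Leydig cluster that missed the gate, 44, 75, 140 and 117 per library, showed the same order for the 6 genes at other levels. They came from the libraries on which the genes were picked, and the share of all genes with such an order was not computed here either. *Ren1* stood at 959 and 661 CPM in control XY against 568 and 35.1 CPM in dKO XY. *Gsta2* was higher in these control cells than in gated ones, at 305 and 209.8 CPM, and stood at 71.4 and 34.6 CPM in dKO XY. The level of *Ifitm1* was 189.8 and 133 CPM in control XY and 485 and 375 CPM in dKO XY.

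By level, *Ren1* and *Mal* stood out most in Leydig cells, and the others had levels of the same order in further cell types. In control XY the Leydig mean of *Ren1* was 81.6-fold that of the next cell type, the epithelial cells (117 and 47.5 CPM), whose range overlapped that of the interstitial cells (63.2 and 56.4 CPM). Endothelial cells held 0.295% and 0.342% of the Leydig level of *Ren1* in the control XY libraries, and 0.251% and 0.247% of that of *Cyp17a1*, so that both Leydig transcripts were found there at a like low share. In the dKO XY libraries the shares were less alike, at 0.474% and 2.81% for *Ren1* and 0.178% and 0.717% for *Cyp17a1*. The Leydig mean of *Mal* was 60.3-fold that of the next type, and 2.19 CPM was the highest value in any other type of the control XY libraries.

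For *Gsta2* and *Akr1cl* supporting cells came next after Leydig cells in control XY, and for *Akr1b7* they were level with them. The Leydig mean was 1.77-fold the supporting mean for *Gsta2* and 3.28-fold for *Akr1cl*. *Gsta2* ran in control XY from Leydig cells down to supporting cells (79.9 and 66.8 CPM) and interstitial cells (41.7 and 32.2 CPM) without overlap, and was at or under 11.2 CPM elsewhere. *Akr1cl* also ran from Leydig to supporting to interstitial cells, with 686 and 603 CPM in supporting cells and 234 and 215 CPM in interstitial cells, and pericytes (199 and 210.4 CPM) below these. For *Akr1b7* the supporting cells (26.1 and 22.0 CPM) and Leydig cells overlapped, pericytes held 10.7 and 6.90 CPM, and every other type was at or under 1.03 CPM.

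*Aqp5*, *Mapk13* and *Ifitm1* had their highest control XY levels outside Leydig cells. Epithelial cells held 29.1 and 33.3 CPM of *Aqp5* and supporting cells 28.0 and 26.5 CPM, just above the Leydig range. *Mapk13* stood at 185.9 and 181 CPM in supporting cells, 8.76-fold the Leydig mean, and its Leydig and immune ranges overlapped. *Ifitm1* had its highest mean in immune cells, at 377 and 996 CPM, with 672 CPM in the germ cells of library 1 between them, and was lower than in Leydig cells in the endothelial cells alone, at 13.5 and 19.3 CPM. Control XY library 2 held fewer than 10 germ cells and gave no germ cell value.

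**Figure D3:**
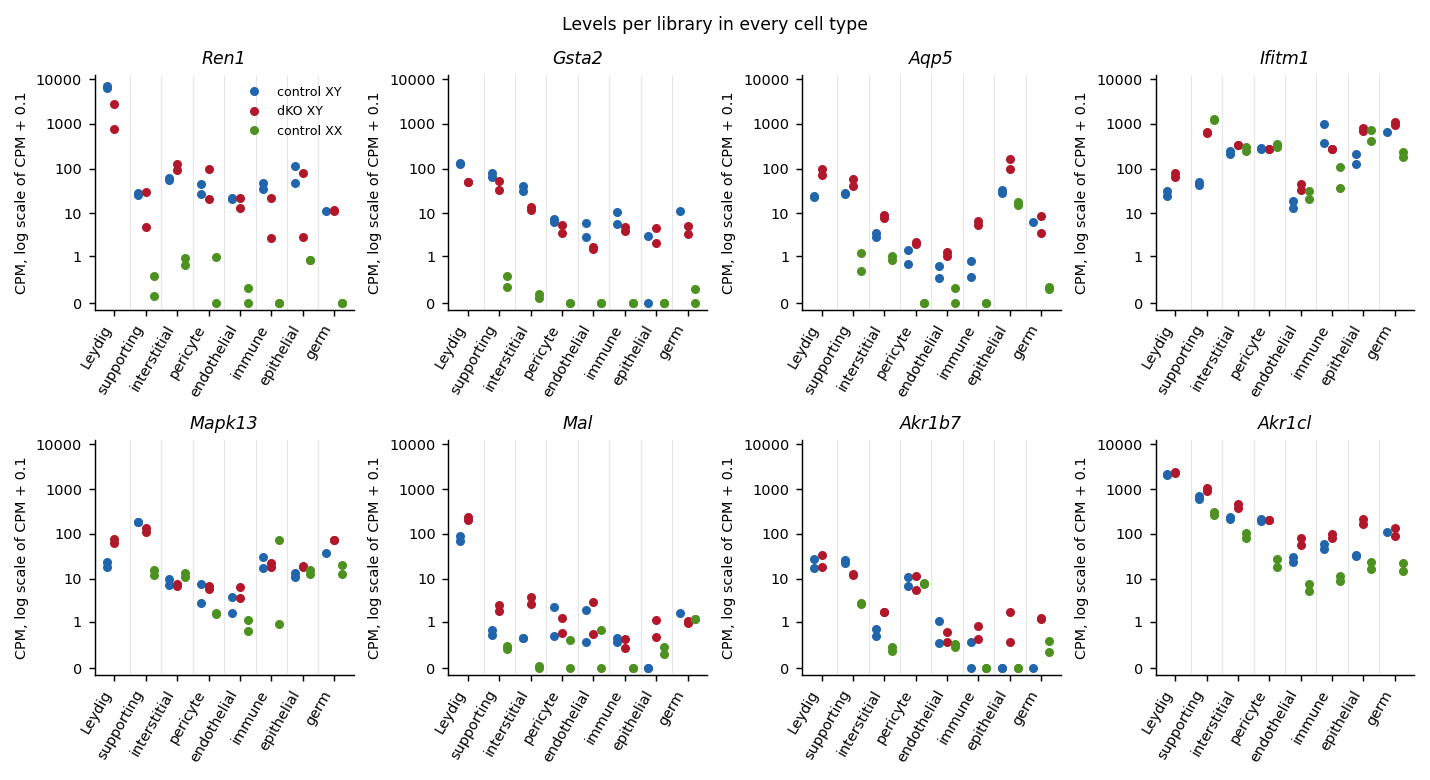
Level of each gene in CPM in 8 cell types (y axis, log scale of CPM + 0.1), 1 point per library, for control XY, dKO XY and control XX. Leydig cells stand far above all other types for Ren1 and Mal, supporting cells are highest for Mapk13 in the XY libraries, and the control XX points of Ren1 and Gsta2 lie under 1 CPM in every type.

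Whether the 8 genes also differed between dKO XY and control XY outside Leydig cells was tested on other cells of the same 4 XY libraries. Since the genes had been picked on these libraries, the tests are not independent of that choice. These tests used edgeR on UMIs summed per library, with all libraries of at least 10 cells in 1 fit. In the tests within the Sertoli-led, *Sostdc1*-led and cycling clusters given below, control XX had fewer cells per library and was not in the fit. In supporting cells 7 of 8 were called, 4 higher and 3 lower, where 17.5% of 15857 genes were called, 10.3% higher and 7.28% lower. The clusters behind this class differed: Sertoli-led cells were 246 of 259 and 515 of 533 in control XY, and 756 of 1257 and 456 of 912 in dKO XY, where 430 and 432 cells of a cluster led by *Myl1* and 71 and 24 granulosa-led cells made up the rest.

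*Ifitm1* rose most. Supporting cells held 49.9 and 43.7 CPM in control XY and 617 and 669 CPM in dKO XY (log2 fold change 3.79, SE 0.15, edgeR adjusted p = 1.38e-06). The rise was seen within Sertoli-led cells, from 50.8 and 43.2 CPM to 386 and 477 CPM (log2 fold change 3.18, adjusted p = 2.69e-07), and the level was 1620.5 and 1292 CPM in the granulosa-led cells of dKO XY. Of 16 other IFITM and interferon-stimulated genes tested in supporting cells, 6 rose and none fell (median log2 fold change 1.40, against 0.01 over all genes tested), the largest being *Bst2*, an interferon-induced membrane protein, from 129.7 and 110.02 CPM to 675 and 800.4 CPM (log2 fold change 2.63, edgeR adjusted p = 8.04e-06).

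*Akr1b7* fell in supporting cells, from 26.1 and 22.0 CPM to 12.1 and 12.9 CPM (log2 fold change -0.93, SE 0.16, edgeR adjusted p = 0.00292). It also fell within Sertoli-led cells, from 25.9 and 22.0 CPM to 14.0 and 15.0 CPM (log2 fold change -0.73, adjusted p = 0.00678). The other 5 genes called over all supporting cells were not called within the Sertoli-led cluster. *Mapk13*, for example, was 185.9 and 181 CPM against 133 and 110.2 CPM over all supporting cells (log2 fold change -0.58, edgeR adjusted p = 0.0227), and 193.7 and 185.5 CPM against 182 and 160.2 CPM in Sertoli-led cells (log2 fold change -0.17, adjusted p = 0.433). *Gsta2* had a log2 fold change of -0.76 (edgeR adjusted p = 0.0328) over all and -0.23 (adjusted p = 0.395) within, *Akr1cl* 0.61 (0.0191) and 0.12 (0.621), *Aqp5* 0.89 (0.0412) and 0.32 (0.192), and *Mal* 2.09 (0.00988) and 1.03 (0.211), the last at levels of at most 2.50 CPM. The *Myl1*-led cluster had only 13 and 18 cells in control XY and was not tested. There *Gsta2* stood at 131 and 51.5 CPM in control XY against at most 17.4 CPM in dKO XY, and *Aqp5* at 17.5 and 20.6 CPM (8 UMIs each) against 64.0 and 85.8 CPM, both without overlap. *Mal* was covered by 0 and 1 UMIs in control XY and stood at 4.09 and 4.29 CPM in dKO XY, while *Mapk13* and *Akr1cl* overlapped. The 5 calls over all supporting cells were also lost without single libraries. Without control XY library 1, control XY library 2 or dKO XY library 2 the adjusted p was 0.129, 0.207 and 0.222 for *Aqp5*, 0.157, 0.0683 and 0.149 for *Gsta2* and 0.0874, 0.0915 and 0.135 for *Mapk13*. Without control XY library 2 or dKO XY library 2 it was 0.147 and 0.141 for *Akr1cl* and 0.127 and 0.0688 for *Mal*. The call of *Aqp5* was lost as well with DESeq2 (adjusted p = 0.326), with over 1500 genes per cell (0.113) and without the highest doublet scores (0.145).

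*Ren1* in supporting cells was low and divided the dKO XY libraries. It stood at 25.9 and 28.0 CPM in control XY against 30.7 and 4.85 CPM in dKO XY, so that control XY lay between the 2 dKO XY values (log2 fold change -0.60, edgeR adjusted p = 0.578). These levels were 0.368% to 1.11% of those in Leydig cells of the same library. For *Cyp17a1* the same share was 0.250% to 0.417%. Within Sertoli-led cells alone *Ren1* stood at 26.3 and 28.1 CPM in control XY against 18.5 and 5.46 CPM in dKO XY, and edgeR called it there (log2 fold change -1.20, adjusted p = 0.0364). Over all supporting cells the log2 fold change of *Ren1* was -2.45 without dKO XY library 1, a fit that left 1 dKO XY library.

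In interstitial cells 7 of 8 were called, 6 higher and 1 lower, where 6.97% of 16918 genes were called, 4.14% higher and 2.83% lower. The clusters behind this class also differed: the cluster led by *Sostdc1* made up 64.6% and 63.1% of the class in control XY and 50.1% and 43.2% in dKO XY, the cycling cluster 30.1% and 32.9% against 36.4% and 46.0%, and the cluster led by *Il33*, *Gdf10* and *Lum* 5.29% and 3.97% against 13.6% and 10.8%. Values within these clusters follow those of the class. *Gsta2* fell, as it was lower in Leydig cells, from 41.7 and 32.2 CPM to 11.8 and 14.1 CPM (log2 fold change -1.52, SE 0.15, edgeR adjusted p = 0.00275). It fell in the cluster led by *Sostdc1* (log2 fold change -1.69, adjusted p = 0.0037) and in the cycling cluster (log2 fold change -1.10, adjusted p = 0.0113), and in the third cluster, led by *Il33*, *Gdf10* and *Lum*, it was at most 2.20 CPM in every library.

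*Aqp5* rose from 2.82 and 3.57 CPM to 8.01 and 9.13 CPM in interstitial cells (log2 fold change 1.42, SE 0.18, edgeR adjusted p = 0.00536). *Akr1cl* rose from 234 and 215 CPM to 373 and 455 CPM (log2 fold change 0.87, SE 0.14, edgeR adjusted p = 0.011). Both were also called in the *Sostdc1*-led and in the cycling cluster taken alone. In the cluster led by *Il33*, *Gdf10* and *Lum*, *Aqp5* was at 1.71 and 2.50 CPM in control XY against 1.92 and 1.94 CPM in dKO XY (log2 fold change -0.14, edgeR adjusted p = 1.00). *Akr1cl* was at 21.0 and 24.2 CPM against 45.2 and 43.4 CPM there (log2 fold change 0.95, edgeR adjusted p = 0.105), and DESeq2 called it (adjusted p = 0.000851). Over all alternatives in interstitial cells the call of *Akr1cl* was kept in 14 and lost in 3. *Akr1b7* (log2 fold change 1.64, edgeR adjusted p = 0.0135) and *Mal* (log2 fold change 3.09, edgeR adjusted p = 0.00254) rose at levels of at most 1.72 and 3.87 CPM. *Akr1b7* was also called in the *Sostdc1*-led (log2 fold change 1.46, adjusted p = 0.0216) and in the cycling cluster (2.13, adjusted p = 0.0169). Its interstitial call was kept in 14 alternatives and lost in 1. *Mal* went from 0.697 and 0.506 CPM to 4.94 and 6.21 CPM in the cycling cluster (log2 fold change 3.24, adjusted p = 0.00313) and from 0.165 and 0.327 CPM to 0.797 and 0.684 CPM in the *Sostdc1*-led cluster, where it was not called (adjusted p = 0.0568). In the third cluster neither exceeded 1.03 CPM. *Mal* in interstitial cells was 0.407% and 0.571% of its Leydig level in the control XY libraries and 1.09% and 1.91% in the dKO XY libraries, while for *Insl3* these shares were 0.331% and 0.353% against 0.639% and 1.02%. Without cells that had 0.2% or more of their UMIs in *Cyp17a1* and *Cyp11a1*, the log2 fold change of *Mal* was 2.57 (adjusted p = 0.00366).

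*Ifitm1* rose in interstitial cells by a small amount, from 249 and 213 CPM to 339 and 342 CPM (log2 fold change 0.55, SE 0.12, edgeR adjusted p = 0.0371). That call was lost without any 1 of the 4 XY libraries (adjusted p = 0.106 to 0.307). Within clusters *Ifitm1* was called in the *Sostdc1*-led (log2 fold change 0.49, adjusted p = 0.0241) and the cycling cells (0.93, adjusted p = 0.0062) and not in the third cluster (0.39, adjusted p = 0.699). *Mapk13* was not called, at 7.25 and 9.79 CPM against 6.80 and 7.40 CPM (log2 fold change -0.27, edgeR adjusted p = 0.457). It was called in none of the 3 clusters (adjusted p = 0.181 to 0.797), though both dKO XY libraries lay below both control XY libraries in the *Sostdc1*-led cluster (6.91 and 6.84 against 7.75 and 10.4 CPM) and in that led by *Il33*, *Gdf10* and *Lum* (10.1 and 10.7 against 12.6 and 16.4 CPM). Whether these differences departed from those in Leydig cells was not tested.

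**Figure D4:**
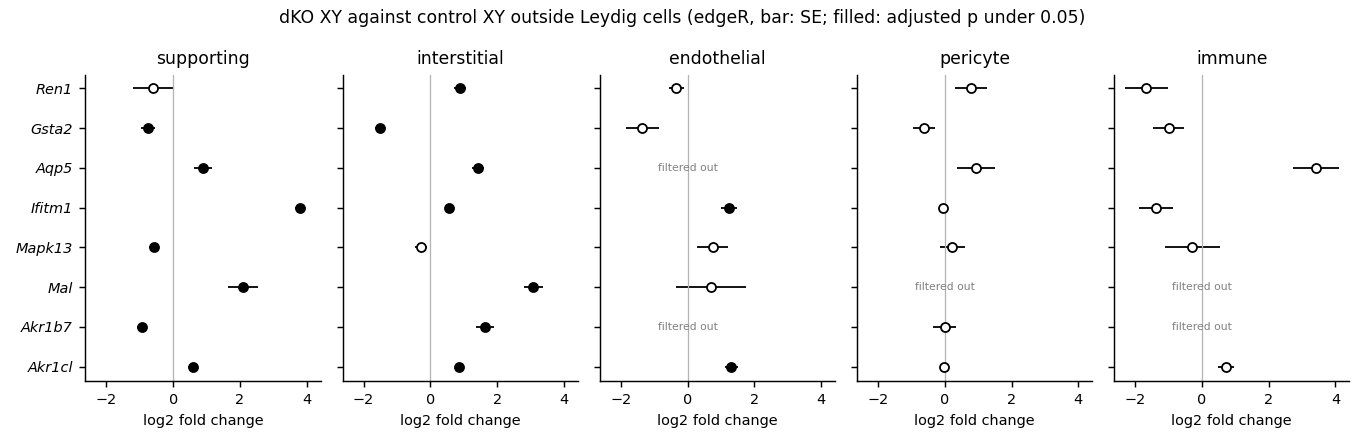
Log2 fold change of dKO XY against control XY (x axis) for each gene in 5 cell types outside Leydig cells, from edgeR with bars for the SE and filled points for an adjusted p under 0.05. Ifitm1 in supporting cells has the largest value, Gsta2 lies at or left of 0 in all 5 types, and no point is filled in pericytes and immune cells.

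*Ren1* went the other way in interstitial cells than in Leydig cells. Interstitial cells held 63.2 and 56.4 CPM in control XY and 129 and 91.1 CPM in dKO XY (log2 fold change 0.88, SE 0.18, edgeR adjusted p = 0.0257). The call was lost without control XY library 1 (adjusted p = 0.0863), without control XY library 2 (adjusted p = 0.137) or without dKO XY library 1 (adjusted p = 0.0564). The 3 clusters of the class differed. In the *Sostdc1*-led cells *Ren1* stood at 43.7 and 45.6 CPM in control XY against 50.7 and 7.78 CPM in dKO XY, and in the cycling cells at 58.1 and 64.7 CPM and at 76.6 and 6.47 CPM, so that in both the control XY libraries lay between the dKO XY libraries.

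The higher *Ren1* level lay in the stromal cluster led by *Il33*, *Gdf10* and *Lum*. That cluster held 269 and 91.4 CPM in control XY and 549 and 845 CPM in dKO XY. Both dKO XY libraries were above both control XY libraries, by 3.87-fold in the mean, but the edgeR test within this cluster did not call it (log2 fold change 1.92, adjusted p = 0.134). The *Ren1* UMIs sat in few cells. Cells with at least 1000 CPM of *Ren1*, a limit chosen after the values were seen, were 26 of 278 (9.35%) and 7 of 249 (2.81%) in control XY and 104 of 641 (16.2%) and 66 of 313 (21.1%) in dKO XY, and they held 40.4% to 85.9% of the cluster's *Ren1* UMIs. *Cyp17a1* was 50.4, 35.0, 41.5 and 37.1 CPM in those cells and 43.8, 45.8, 33.9 and 37.6 CPM in the rest of the cluster, so that they had more of this Leydig transcript than the rest in library 1 of each group and less in library 2. *Lum* was lower in them than in the rest of the cluster in all 4 libraries, for example 234 against 460.2 CPM in dKO XY library 1.

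**Figure D5:**
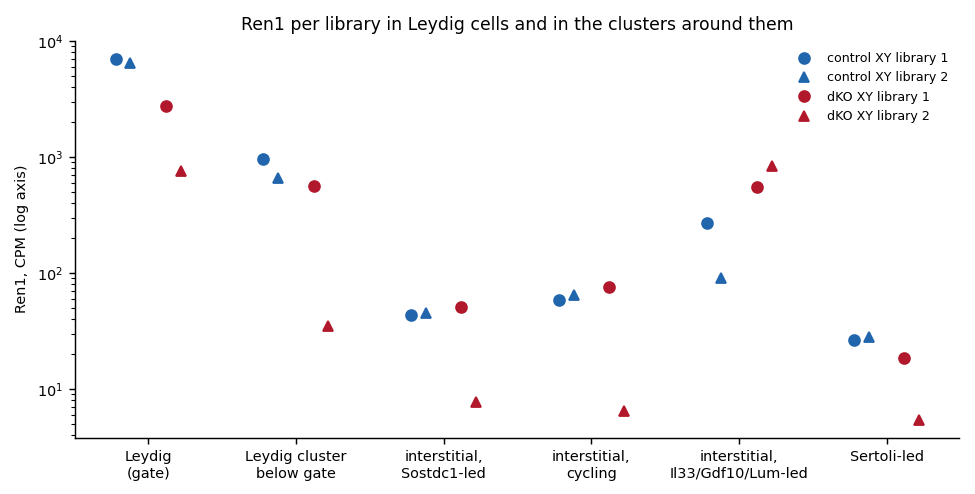
Ren1 in CPM (y axis, log axis) in Leydig cells and in 5 neighbouring cell groups, 1 point per library of control XY and dKO XY. In gated Leydig cells both dKO XY points are under both control XY points, in the cluster led by Il33, Gdf10 and Lum both are above, and dKO XY library 2 is the lowest point in the other 4 groups.

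Few members were called in the smaller cell types. In endothelial cells 2 of the 6 genes that could be tested rose, where 0.503% of 11939 genes were called, 0.201% higher and 0.302% lower: *Akr1cl*, from 23.2 and 30.96 CPM to 56.0 and 81.1 CPM (log2 fold change 1.31, SE 0.21, edgeR adjusted p = 0.0162), and *Ifitm1*, from 13.5 and 19.3 CPM to 33.7 and 46.1 CPM (log2 fold change 1.24, SE 0.23, edgeR adjusted p = 0.0425). The call of *Akr1cl* was lost without cells that had 0.2% or more of their UMIs in *Cyp17a1* and *Cyp11a1* (log2 fold change 0.92, adjusted p = 0.0651), without either control XY library (adjusted p = 0.168 and 0.0793) and without the highest doublet scores (adjusted p = 0.243). That of *Ifitm1* was lost without either control XY library (adjusted p = 0.354 and 0.145), without dKO XY library 2 (adjusted p = 0.0882) and without the highest doublet scores (adjusted p = 0.0624).

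In pericytes edgeR called none of 7 genes tested, none had an unadjusted p under 0.05 and DESeq2 called none, where 0.232% of 12059 genes were called, 0.149% higher and 0.0829% lower. *Ren1* in pericytes was called without the filter on low counts. Its log2 fold change was 1.499 without dKO XY library 2, a fit that left 1 dKO XY library. In immune cells edgeR called none of 6, where 0.0711% of 11247 genes were called, 0.0533% higher and 0.0178% lower. Of the 6, 4 had an unadjusted p under 0.05 and DESeq2 called none. On simulated counts the immune fit recovered 17.5% of genes with a log2 change of 1, so that a missing call there says little. Immune *Aqp5* went from 0.285 and 0.759 CPM, which are 1 and 2 UMIs, to 5.41 and 6.59 CPM (edgeR adjusted p = 0.195), and no fold is given.

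Control XX gonads hold no Leydig cells, and most of the 8 genes were lower in the other somatic cells of the ovary than in those of the control testis. These comparisons share the control XY libraries with those above. In supporting cells, nearly all granulosa-led in control XX and Sertoli-led in control XY, 6 of 8 were lower and 1 was higher, where 49.3% of the genes were called, 25.4% higher and 24.0% lower. *Gsta2* was at 79.9 and 66.8 CPM in control XY against 0.128 and 0.298 CPM in control XX (log2 fold change -8.72, SE 0.34, edgeR adjusted p = 7.64e-08). *Mapk13* was at 185.9 and 181 CPM in control XY against 11.9 and 15.54 CPM in control XX (log2 fold change -3.81, SE 0.17, edgeR adjusted p = 1.29e-07). *Ifitm1* was the one that was higher, at 1286 and 1206 CPM in control XX (log2 fold change 4.68, SE 0.16, edgeR adjusted p = 3.68e-08).

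*Aqp5* and *Akr1b7* were also lower in the XX supporting cells, at 1.21 and 0.431 CPM (log2 fold change -4.90) and at 2.69 and 2.85 CPM (log2 fold change -3.17). *Akr1cl* differed by less, at 267 and 309 CPM (log2 fold change -1.22, edgeR adjusted p = 9.39e-05). *Ren1* was covered by 13 UMIs in the 3000 and 1190 control XX supporting cells. For *Ifitm1*, *Mapk13*, *Gsta2* and *Akr1b7* both dKO XY supporting values lay between those of the 2 control groups. For *Aqp5*, *Akr1cl* and *Mal* both lay above both control groups, and for *Ren1* 1 lay above control XY and 1 between the groups.

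In interstitial cells 6 of the 8 were lower in control XX, where 24.8% of the genes were called, 12.9% lower and 11.9% higher. *Ren1* was at 0.929 and 0.606 CPM (log2 fold change -6.28, SE 0.26, edgeR adjusted p = 3.24e-06). Endothelial cells, which should lack renin, held 20.7 and 22.0 CPM of it in control XY and at most 0.122 CPM in control XX. Control XX has no Leydig cells, and the part of Leydig RNA in the control XY values of these comparisons was not tested. *Aqp5* was at 0.816 and 1.00 CPM (log2 fold change -1.72, edgeR adjusted p = 0.000708). *Akr1cl* was at 107 and 79.4 CPM (log2 fold change -1.22, edgeR adjusted p = 0.000523). The clusters again differed, since control XX interstitial cells were almost all of the *Il33*, *Gdf10* and *Lum* cluster. Within that cluster *Ren1* kept its difference (log2 fold change -7.88, adjusted p = 7.82e-06), but *Akr1cl* turned, from 21.0 and 24.2 CPM in control XY to 104 and 79.4 CPM in control XX (log2 fold change 2.06, adjusted p = 1.48e-05). *Mal* was covered by 1 UMI in all control XX interstitial cells, and no fold is given.

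Over 52 sums of UMIs per library and cell type the 8 genes fell into looser and closer pairs. The closest were *Gsta2* and *Akr1cl* (Pearson r = 0.85 of log2 CPM + 1) and *Gsta2* and *Ren1* (r = 0.82), and *Ifitm1* was apart from the others, with r from -0.19 to 0.22. These sums share libraries and cell types, so r is a description. Among 11143 genes with a mean of at least 5 CPM, *Ren1* was most like *Cyp17a1* and *Cyp11a1* (both r = 0.93), the transcripts that picked the Leydig cells. *Mal* was most like *Hao2* and *Crhr1* (both r = 0.95), *Akr1cl* most like *Me1* (r = 0.93), and *Gsta2* most like *Mmd2* and *Cbln1* (both r = 0.92).

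These neighbours did not all share the difference in Leydig cells, but some did. The best matches of *Ren1* were lower in both dKO XY libraries, as *Ren1* was. *Cyp17a1* stood at 16205 and 15194 CPM in control XY against 12842 and 12044 CPM in dKO XY, and *Cyp11a1* at 10069 and 9924 against 7536 and 7331 CPM. Those of *Ifitm1* were higher in both, with *Tnnt1* at 4.45 and 5.73 against 8.92 and 7.26 CPM. *Hao2* and *Mmd2* did not follow their members. *Hao2* stood at 373, 426, 359 and 434 CPM in the 2 control XY and the 2 dKO XY libraries, whereas *Mal* did not overlap between the groups. *Mmd2* was at 49.9, 48.2, 49.3 and 48.1 CPM, whereas *Gsta2* was lower in dKO XY. *Akr1b7* was most like *Gsta3* (r = 0.87) and *Mfap3l* (r = 0.81). For the others the best matches were weaker in part: *Aqp5* with *Wwc1* (r = 0.86) and *Akap5* (r = 0.84), *Mapk13* with *Shisa8* (r = 0.81) and *Fbrsl1* (r = 0.79), and *Ifitm1* with *Tnnt1* and *Anpep* (both r = 0.74).

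*Ren1* lies 13.94 Mb from *Inhbb* on chromosome 1, 1 of the 2 genes targeted in dKO XY. Within 20 Mb of *Inhbb* 5 of 116 genes (4.31%) were called in Leydig cells, against 4.66% of all genes tested there. In interstitial cells 18 of 132 (13.6%) were called, against 6.97%, and in supporting cells 34 of 125 (27.2%), against 17.5%. In endothelial cells 2 of 94 (2.13%) were called, against 0.503%, in pericytes 2 of 95 (2.11%), against 0.232%, and in immune cells 0 of 96. Within 20 Mb of *Amh* the shares were 4.12% in Leydig, 6.83% in interstitial and 18.4% in supporting cells. No gene near *Amh* was called in endothelial cells, pericytes or immune cells. *Akr1cl* lies 54.4 Mb from *Inhbb*, and no other member is on chromosome 1 or on that of *Amh*.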

How the data were processed

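Droplet single-cell RNA sequencing (10x) measured transcripts in 6 libraries of E15.5 gonads, 2 for each of 3 groups. The authors aligned reads and counted UMIs with Cell Ranger, corrected for barcode swapping and deposited UMI counts per gene and cell, not normalized, on mm10. The submitters' processing notes also name Seurat 4.0. The annotation release is not given in the sources used here. The deposited barcode and gene lists served as names only.

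Cells were kept between 2500 and 9000 genes (limits excluded), with under 25% mitochondrial and under 20% *Hbb* UMIs. These cells were clustered with Seurat 5.3.0 (20 dimensions, resolution 0.21), leaving the 8 genes out of the variable genes, and clusters were named from marker lists. Scrublet (scanpy 1.11.5) marked 0 to 71 cells per library at its automatic threshold, so doublets were kept, and an alternative left out the 8% with the highest scores. Counts were summed per library and cell type (at least 10 cells) and tested with edgeR 4.0.16 (filterByExpr, TMM, quasi-likelihood test, Benjamini-Hochberg adjustment over all genes tested), with DESeq2 1.42.0 as an alternative. CPM are counts per 1000000 UMIs of the sum. Germ and epithelial cells got levels and no test. Scripts were tested on simulated counts with 200 changed genes. False calls made up 9.28% of the calls in the Leydig fit at an adjusted p under 0.05. Over all fits they made up 5.14% to 10.7%. Simulated log2 changes of 1 were recovered for 80.2% of genes in the Leydig fit and 17.5% in immune cells. In the other fits 64.9% to 70.7% were recovered. Depth was 152972655 to 296488697 UMIs per library. Limits of 3 UMIs cover counting error only. The SEs were derived from the log2 fold change and the test statistic of the edgeR fit. The p-values and SEs rest on the spread between libraries of the same group. That spread was estimated over all groups in a fit and with information shared across genes.

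The 8 genes and the lists were chosen with earlier results of these data known. The genes named are all 8 members, up to 2 called genes per list and direction with the largest change, and for each member the 2 genes with the highest correlation. A called gene of the steroid list and a gene correlated with *Akr1cl* are not reported here. *Gsta1*, *Gm3776*, *Dusp10* and the *Lum* comparison were added after values were seen. Tests within single clusters were chosen after seeing the data. Coordinates are from GENCODE M21 (GRCm38) and sequences from RefSeq tables on GRCm38.p6, which held all 8 genes.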

Additional observations from a re-analysis of the deposited data

Results flagged for a closer look

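In 7 cases with at least 5 CPM in a library, both dKO XY libraries lay on one side of both control XY libraries in Leydig cells and on the other side in another cell group. The cases are not separate, since the clusters named lie inside the interstitial and supporting classes. None of these differences between cell groups was tested. In Leydig cells alone, 49.5% of all genes tested had libraries that did not overlap between the groups. The share of genes on opposite sides in another cell group was not computed. *Ren1* was at 0.263 of the control XY mean in dKO XY Leydig cells, at 1.84 times the control XY mean in interstitial cells and at 3.87 times in the cluster led by *Il33*, *Gdf10* and *Lum*. *Ifitm1* was at 2.62 times the control XY mean in dKO XY Leydig cells and at 0.396 of it in immune cells, where control XY library 2 alone stood at 996 CPM. *Mapk13* was at 3.35 times the control XY mean in dKO XY Leydig cells, at 0.664 of it in supporting cells, at 0.902 in the Sertoli-led cluster, at 0.755 in the *Sostdc1*-led cluster and at 0.717 in the cluster led by *Il33*, *Gdf10* and *Lum*.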

How the results depend on the processing

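Outside Leydig cells, over the alternatives that kept all libraries, 354 of 395 values for the 8 genes kept their direction and their side of the threshold, 22 lost a call, 11 gained one and 8 reversed. With single libraries left out the counts were 260 of 305 kept, 30 lost, 4 gained and 11 reversed. In Leydig cells, without a test, 45 of 48 values moved by less than the spread between libraries and 3 by more, and with single libraries left out 27 of 32 by less, 3 by more and 2 reversed. There the log2 fold change of *Ren1* ran from -3.18 (without dKO XY library 1) to -1.28 and that of *Akr1b7* from -0.35 to 0.60, reversed at -0.10 without control XY library 2 and at -0.35 without dKO XY library 1. *Gsta2* was at -1.32 in gated cells of the Leydig cluster alone and ran from -1.43 to -1.32, and *Ifitm1* was at 1.66 without the highest doublet scores and at 1.82 with the Leydig cluster in place of the gate. Values that reversed within single clusters were *Ren1* in interstitial cells (-0.57 in the *Sostdc1*-led and -0.53 in the cycling cluster) and, in the cluster led by *Il33*, *Gdf10* and *Lum*, *Aqp5* (-0.14 by edgeR and by DESeq2), *Akr1c14* (-0.047 and -0.0081) and *Gstt1* (-0.16 by both), and against control XX *Akr1cl* (2.06), *Gsta4* (0.030), *Aqp11* (0.31), *Mapk13* (-0.24) and *Inhbb* (0.19, and 0.027 with the replicate block). In pericytes *Akr1b7* (0.027) and *Inhbb* (-0.085) reversed without the highest doublet scores and *Akr1cl* (0.035) with over 1500 genes per cell. Values with no call over all libraries that reversed without 1 library ran, for *Ren1*, from -2.45 to 0.16 in supporting cells (0.16 without dKO XY library 2), from -0.68 to 0.0018 in endothelial cells and from -0.82 (without dKO XY library 1) to 1.499 in pericytes. They ran for *Mal* in endothelial cells from -0.90 (without dKO XY library 2) to 2.29, for *Mapk13* from -0.24 to 1.14 in pericytes and from -0.67 to 0.29 in immune cells, and in pericytes for *Akr1b7* from -0.66 to 0.42 and for *Akr1cl* from -0.044 to 0.022. *Inhbb* ran from -0.62 to 0.75 in interstitial cells against control XX and from -0.48 to 1.38 in pericytes, and *Amh* in Leydig cells from -1.31 to 0.40. The cause was not tested.

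Counts of genes called by edgeR moved by more than 1.5 times as follows. Without the filter on low counts they were 1862 in Leydig (680 with it), 1811 in interstitial (1180), 387 in endothelial (60), 221 in pericyte (28) and 492 in immune cells (8). With only the 2 groups compared they were 93 in endothelial, 47 in pericyte and 30 in immune cells, and without the highest doublet scores 12 in pericyte and 88 in immune cells. In immune cells DESeq2 called 42, and 23 were called with over 1500 genes per cell. In the cluster led by *Il33*, *Gdf10* and *Lum* alone edgeR called 0 interstitial genes (950 at an unadjusted p under 0.05) and DESeq2 65, and 1620 were called against control XX (4204 in all clusters). Leaving out 1 library gave 725 to 1282 in Leydig cells (1256 without dKO XY library 1, 1282 without dKO XY library 2), 1210 to 2878 in supporting cells (1210 without control XY library 2, 1755 without dKO XY library 2) and 318 to 1293 in interstitial cells (318 and 432 without control XY library 1 and 2, 684 without dKO XY library 2). It gave 2555 to 4430 in interstitial cells against control XX (2567 and 2555 without control XY library 1 and 2), 11 to 108 in endothelial cells (20 and 11 without control XY library 1 and 2, 108 without dKO XY library 1, 106 without control XX library 2), 24 to 50 in pericytes and 0 to 32 in immune cells (0 without control XY library 1 or dKO XY library 2, with 435 and 445 at an unadjusted p under 0.05).

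With the replicate number as a block 1863 genes were called in Leydig, 736 in interstitial and 15 in immune cells. *Ifitm1* in interstitial cells lost its call (edgeR adjusted p = 0.0534), *Mapk13* against control XX gained one there (0.0351), and no other call on the 8 genes changed. The numbers share no stated animal, and same-numbered libraries correlated at -0.212 to 0.134 in their deviations, so they are not taken as pairs.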

Other observations

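Epithelial and germ cells were given levels with no test. *Aqp5* in epithelial cells stood at 29.1 and 33.3 CPM in control XY (30 and 41 cells), at 163.9 and 99.9 CPM in dKO XY (190 and 297 cells) and at 18.4 and 15.1 CPM in control XX. *Ifitm1* in epithelial cells stood at 216 and 126 CPM in control XY, at 816 and 689.5 CPM in dKO XY and at 713 and 414 CPM in control XX. *Akr1cl* there was at 32.6 and 33.96 CPM in control XY against 167 and 218 CPM in dKO XY. *Mapk13* in germ cells was at 38.3 CPM in control XY library 1 (17 cells) and at 72.0 and 73.9 CPM in dKO XY.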
